A study of Mus musculus with 6 samples.

Results

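Fatty acid oxidation and the tricarboxylic acid (TCA) cycle were followed through 34 named genes in the RNA of hematopoietic stem cells (HSCs). Members were taken as the rows of the deposited gene table that carry these gene names, and 33 of the 34 were found among its 27198 genes. Ppara, which encodes the fatty acid receptor PPAR alpha, was not analysed here. HSCs, the rare marrow cells from which all blood cells descend, had been sorted as Lineage- Sca-1+ c-Kit+ Flk2- CD34- cells from male wild-type C57BL/6 mice aged 8 to 10 weeks. The l-FA mice had been given ferulic acid (FA), a phenolic acid of plants, by daily intraperitoneal injection of 50 mg/kg for 30 days. The authors describe the Ctrl mice of the RNA experiment as treated with vehicle, and these mice had not been given FA. Neither group had been irradiated. Each group held 3 libraries of amplified cDNA, and the number of mice behind a library is not given in the sources used here.

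The 6 libraries held from 19287735 to 20380610 counts each. The median chi-square per gene was 0.89 to 1.09 for same-group pairs and 8.2 to 8.83 for pairs across groups, beside 0.455 from counting error. Over immunoglobulin V genes, whose use differs between B cell clones, the same-group medians were 0.362 to 0.545 and the between-group medians 13.8 to 17.0. Same-group libraries thus differed by about counting error in these genes, and if each group was a single pool of cells, pool and treatment cannot be told apart. All p-values below measure the spread between these libraries, which may be technical. Of 12 HSC markers, 8 were higher and 1 was lower in l-FA at an edgeR adjusted p under 0.05. Of all genes tested, 25.5% were higher and 25.0% lower at this limit. The summed level of the 12 HSC markers was 1840 to 1910 CPM (counts scaled to a common library size) in Ctrl and 2100 to 2120 in l-FA. Kit alone had a mean of 1070 CPM in Ctrl and 1160 in l-FA. Cd34 and Flt3 (the gene of Flk2) were abundant in RNA although the sort took cells without these proteins on the surface, and both were higher in every l-FA library. Flt3 had 756 to 763 CPM in Ctrl and 1160 to 1200 in l-FA (log2 fold change 0.64, edgeR adjusted p = 3.95e-06), and Cd34 had 1320 to 1360 CPM in Ctrl and 1540 to 1620 in l-FA (0.23, edgeR adjusted p = 0.000286). The summed level of 12 granulocyte and monocyte markers was 23600 to 24500 CPM in Ctrl and 6130 to 6430 in l-FA. Most of this sum was Mpo, with a mean of 18500 CPM in Ctrl and 4940 in l-FA. Of the 12 markers 11 were lower (91.7%, beside 25.0% of all genes tested), Mpo and Elane among them. Lyz2 was higher, and none of the 12 was at 0 in all libraries. The sums of erythroid, megakaryocyte and B cell markers were higher in every l-FA library, and the sum of T and NK cell markers was lower. The part of these cells or transcripts in the results below was not tested. In bulk RNA, fewer cells of a type and less RNA per cell cannot be told apart.

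Fatty acids enter mitochondria as carnitine esters and are shortened there in repeated rounds of dehydrogenation, hydration, a further dehydrogenation and thiolysis, each round releasing acetyl-CoA. The TCA cycle oxidizes this acetyl group, and electron carriers take the electrons of both pathways to the respiratory chain. HSCs are known for low mitochondrial respiration at rest, and fatty acid oxidation under PPAR control is known for its place in their maintenance.

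In l-FA the named genes moved by small amounts, more often down than up. Of the 33 genes, 17 were lower and 3 (Cpt1a, Acadl and Acadm) were higher than in Ctrl at an adjusted p under 0.05 in edgeR's quasi-likelihood test, and 13 did not pass. These 20 make 60.6% of the genes tested here, beside 50.5% of all 16520 genes tested and 61.0% of the 5166 genes with a mean of at least 1000 counts, the range in which most of these genes lie. Lower genes made 51.5%, beside 25.0% of all genes tested and 36.5% of the high-count genes. Higher genes were 3 of 33, beside 25.5% of all genes tested and 24.5% of the high-count genes. Only Ppard also passed a 2-fold limit, which 11.8% of all genes passed with either sign and 5.1% as lower genes. The libraries of the groups did not overlap for 23 of the 33 genes, 19 lower and 4 higher in l-FA, where 60.3% of all genes were without overlap, 29.9% lower and 30.4% higher. The median log2 fold change was -0.14, beside 0.003 over all genes tested and -0.051 over the high-count genes. The median size of the change was 0.14 on the log2 scale, which was less than the 0.29 of all genes tested and the 0.20 of high-count genes.

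The scaling between libraries bears on changes this small. Scaling by total counts in place of the trimmed mean of M-values (TMM), an alternative chosen after seeing the data, moved the median of all genes by 0.079 on the log2 scale. It turned the split of all genes called from 4205 higher and 4131 lower into 5146 higher and 3205 lower. Under it 12 of the named genes were lower and 6 higher, beside 50.6% of all genes called, 19.4% as lower genes, and the median of the named genes was -0.062. DESeq2 called 16 of the named genes lower and 3 higher, beside 24.9% of all genes as lower genes. Of the 20 genes called, 14 kept their call in all 14 alternatives run, 6 (Acadm, Slc25a20, Echs1, Hadh, Etfdh and Sucla2) lost it in at least 1, and 0 changed sign.

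**Figure D1:**
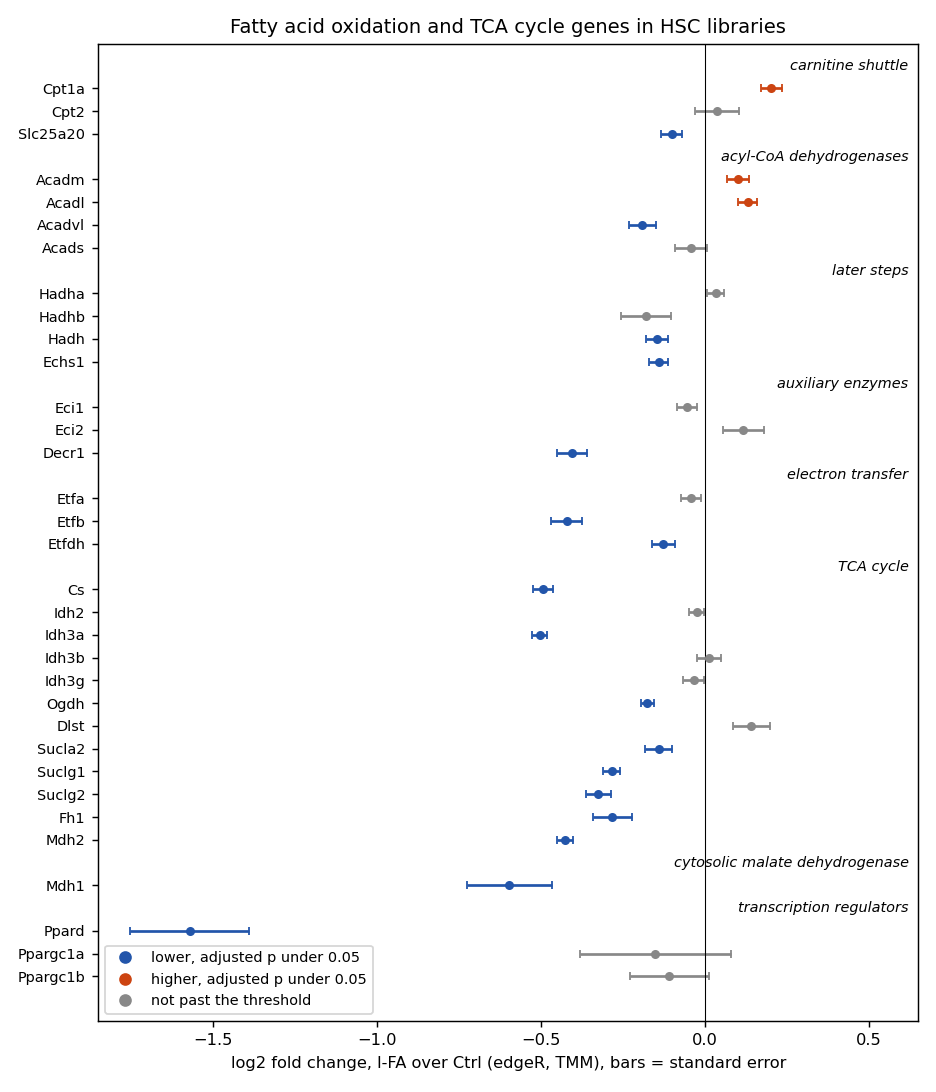
Log2 fold change of l-FA over Ctrl (horizontal axis, edgeR with TMM scaling) for each of the 33 genes, grouped by role, with bars for the standard error and colours for the call. Ppard sits apart at -1.57, the TCA cycle genes lie between -0.50 and 0.14, and the fatty acid oxidation enzymes lie between -0.42 and 0.20, with 5 uncalled genes near 0 (Acads, Eci1, Etfa, Idh2 and Idh3g) turning from lower to higher under total-count scaling.

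The sequence before the start of 6 genes is shown because the results turn on them. Among the 33 named genes, Cs, Mdh2 and Etfb were the most strongly lower enzyme genes of the mitochondrion with a window. Of the same 33, Cpt1a was the fatty acid oxidation gene with the largest rise and Ppard fell most. Hadhb shares its upstream region with Hadha. Each line gives the 250 bases before the RefSeq start in the GRCm38.p6 build, 5′ to 3′ on the strand of the gene, which is the plus strand in all 6. Capitals mark matches to the motifs searched. Cs lies at chr10:128337477-128337726, Mdh2 at chr5:135778399-135778648, Etfb at chr7:43443822-43444071, Cpt1a at chr19:3323051-3323300, Ppard at chr17:28232504-28232753 and Hadhb at chr5:30155003-30155252.
Cs: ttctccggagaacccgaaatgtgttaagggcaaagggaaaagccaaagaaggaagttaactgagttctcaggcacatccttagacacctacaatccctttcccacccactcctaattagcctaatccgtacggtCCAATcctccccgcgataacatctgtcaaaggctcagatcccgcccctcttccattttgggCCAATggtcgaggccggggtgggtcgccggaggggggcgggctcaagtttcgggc
Mdh2: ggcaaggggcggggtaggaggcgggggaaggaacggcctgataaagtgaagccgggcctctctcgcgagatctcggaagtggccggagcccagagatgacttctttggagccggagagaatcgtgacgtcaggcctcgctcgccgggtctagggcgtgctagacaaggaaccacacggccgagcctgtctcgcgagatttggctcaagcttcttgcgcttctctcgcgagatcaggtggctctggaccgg
Etfb: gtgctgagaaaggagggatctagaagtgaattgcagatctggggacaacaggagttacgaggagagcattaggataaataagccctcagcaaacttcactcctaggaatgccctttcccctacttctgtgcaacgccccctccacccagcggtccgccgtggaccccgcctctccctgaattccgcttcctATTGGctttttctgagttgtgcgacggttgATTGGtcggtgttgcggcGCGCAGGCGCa
Cpt1a: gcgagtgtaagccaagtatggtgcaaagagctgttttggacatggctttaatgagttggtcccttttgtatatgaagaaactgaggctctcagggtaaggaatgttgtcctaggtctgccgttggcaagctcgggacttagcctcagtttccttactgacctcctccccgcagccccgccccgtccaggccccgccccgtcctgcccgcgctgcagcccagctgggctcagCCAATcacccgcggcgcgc
Ppard: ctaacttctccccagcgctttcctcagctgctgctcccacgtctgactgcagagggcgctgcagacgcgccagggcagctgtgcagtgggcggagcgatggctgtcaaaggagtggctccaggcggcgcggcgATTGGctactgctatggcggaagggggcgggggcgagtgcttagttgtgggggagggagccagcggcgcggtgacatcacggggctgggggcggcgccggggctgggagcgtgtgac
Hadhb: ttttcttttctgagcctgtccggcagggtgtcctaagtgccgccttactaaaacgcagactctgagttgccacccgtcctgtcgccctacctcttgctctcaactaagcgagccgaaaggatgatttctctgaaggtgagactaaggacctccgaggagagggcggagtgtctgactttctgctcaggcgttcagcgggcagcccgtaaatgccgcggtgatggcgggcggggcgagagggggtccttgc
Both strands of such windows were searched for TCAAGGTCA (estrogen-related receptors), AGGTCA repeated after 1 base of any kind (PPAR), GCGC and TGCGC with 1 base of any kind between (NRF1), CCGGAAGT (ETS factors), CACGTG (E-box) and CCAAT, and no match overlaps another in the lines above. The RefSeq table held a window for 30 of the 33 genes. CCAAT or its complement was found for 14 of the 30 (46.7%, beside 37.5% of 27025 genes), Cs, Etfb, Cpt1a and Ppard among them. The NRF1 letters were found for Etfb, Etfdh and Sucla2 (10.0%, beside 4.23% of all genes), and those of Etfb start 11 bases before the transcript start. The ETS letters were found for Cpt2 and Slc25a20 (6.67%, beside 3.23%) and the E-box for Ogdh (3.33%, beside 6.86%). The PPAR and estrogen-related receptor letters were in 0 of the 30 windows, beside 0.0407% and 0.422% of all genes, which says only that these letters are not there.

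Genes of the TCA cycle were lower or did not pass. Of the 12 measured, 8 were lower and 0 higher, a share lower of 66.7% beside 25.0% of all genes tested and 36.5% of high-count genes, with a median log2 fold change of -0.23. Under total-count scaling 7 were lower, where 19.4% of all genes were, and Dlst was higher, with a median of -0.15. The deepest falls among the 12 were in citrate synthase, the catalytic subunit of NAD-dependent isocitrate dehydrogenase and mitochondrial malate dehydrogenase.

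Cs (ENSMUSG00000005683; GRCm39 chr10:128173603-128198348) encodes citrate synthase, which joins acetyl-CoA to oxaloacetate at the entry of the cycle. It had 6481, 6225 and 6492 counts in Ctrl and 4779, 4846 and 4773 in l-FA. All l-FA libraries were below all Ctrl libraries, with 332 ± 6.03 CPM in Ctrl and 236 ± 7.46 in l-FA (n = 3, SD). On the log2 scale the fold change was -0.49 with a standard error (SE) of 0.031 (edgeR adjusted p = 5.87e-05). Idh3a (ENSMUSG00000032279; GRCm39 chr9:54493618-54511945), which encodes the catalytic subunit of NAD-dependent isocitrate dehydrogenase, had 5887, 5903 and 6155 counts in Ctrl and 4587, 4359 and 4428 in l-FA. All l-FA libraries were again lower, by a log2 fold change of -0.50 with an SE of 0.023 (edgeR adjusted p = 2.19e-05). Idh3b and Idh3g encode the other subunits of the same enzyme, and their libraries overlapped between groups. Idh3b had 156 ± 3.55 and 157 ± 6.05 CPM in the Ctrl and l-FA libraries (SD, n = 3, log2 fold change 0.012, edgeR adjusted p = 0.816). Idh3g had 137 ± 2.19 and 134 ± 3.63 CPM (SD, n = 3, log2 fold change -0.035, edgeR adjusted p = 0.408). Idh2, the NADP-dependent mitochondrial isocitrate dehydrogenase, had 464 ± 5.67 and 456 ± 8.11 CPM (SD, n = 3, log2 fold change -0.026, edgeR adjusted p = 0.364).

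The next steps turn 2-oxoglutarate into succinate. Ogdh, the E1 subunit of 2-oxoglutarate dehydrogenase, went from 543 ± 4.22 to 481 ± 5.81 CPM (SD, n = 3). The log2 fold change was -0.18 with an SE of 0.019 (edgeR adjusted p = 0.000454). Dlst, its E2 subunit, went the other way without passing, from 51.4 ± 3.11 to 56.6 ± 2.20 CPM (SD, n = 3, log2 fold change 0.14, edgeR adjusted p = 0.0822). Its 3 l-FA libraries lay above its 3 Ctrl libraries, and it passed without Ctrl library 2 (log2 fold change 0.19, edgeR adjusted p = 0.0285) and under total-count scaling (0.22, edgeR adjusted p = 0.0153). All 3 genes of succinyl-CoA ligase were lower. Suclg1, the shared alpha subunit, fell from 227 ± 3.04 to 186 ± 3.16 CPM (SD, n = 3, log2 fold change -0.29, edgeR adjusted p = 0.000224). Suclg2, the GTP-forming beta subunit, fell from 168 ± 3.61 to 134 ± 5.57 CPM (SD, n = 3, log2 fold change -0.33, edgeR adjusted p = 0.000665). Its processed pseudogene Gm15163 is 98.9% identical over 1302 bases, and with both rows summed the log2 fold change was -0.32 (edgeR adjusted p = 0.000453). Sucla2, the ATP-forming beta subunit, changed least of these, from 135 ± 3.87 to 122 ± 5.20 CPM (SD, n = 3, log2 fold change -0.14, edgeR adjusted p = 0.0285), and lost its call in 6 of the 14 alternatives.

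**Figure D2:**
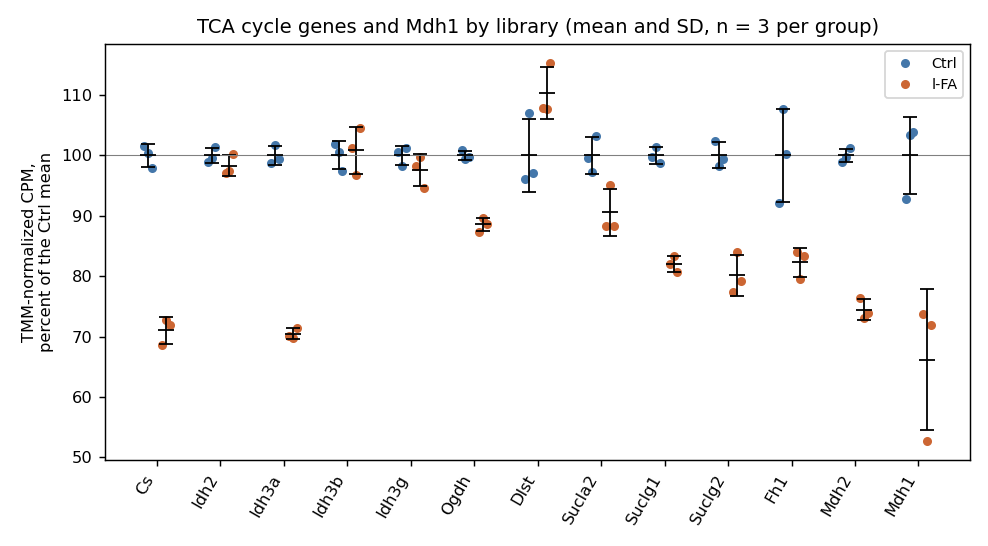
TMM-normalized CPM of the 12 TCA cycle genes and Mdh1 in each library as a percent of the Ctrl mean of that gene (vertical axis), with points for libraries and bars for mean and SD of 3 libraries. Cs, Idh3a and Mdh2 form the lowest tight groups in l-FA, Idh2, Idh3b and Idh3g overlap with Ctrl, and 1 l-FA library of Mdh1 lies below the other points.

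Fh1, fumarase, fell from 136 ± 10.4 to 112 ± 2.87 CPM (SD, n = 3, log2 fold change -0.28, edgeR adjusted p = 0.00700). Mdh2 (ENSMUSG00000019179; GRCm39 chr5:135807334-135819252), the mitochondrial malate dehydrogenase that closes the cycle, had 11941, 11702 and 12669 counts in Ctrl and 10073, 9208 and 9263 in l-FA. Its CPM fell from 628 ± 6.91 to 468 ± 10.8 (SD, n = 3). The log2 fold change was -0.43 with an SE of 0.023 (edgeR adjusted p = 3.73e-05). Mdh1 (ENSMUSG00000020321; GRCm39 chr11:21506692-21522367), its cytosolic counterpart in the malate-aspartate shuttle, had 6675, 7247 and 7761 counts in Ctrl and 5816, 3966 and 5388 in l-FA. The groups did not overlap, but l-FA library 2 lay well below the other l-FA libraries. The log2 fold change was -0.60 with an SE of 0.13 (edgeR adjusted p = 0.00824) and -0.45 without that library (edgeR adjusted p = 0.00241).

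The TCA cycle steps outside the named genes were read from a list of 53 related mitochondrial and peroxisomal genes, of which 49 were tested. Of the 49, 20 were lower and 9 higher, and the share called, 59.2%, was near the 50.5% of all genes tested and the 61.0% of high-count genes. Dld, the E3 subunit shared by the 2-oxoacid dehydrogenases, fell by 0.34 on the log2 scale (edgeR adjusted p = 0.000135). The genes of succinate dehydrogenase, which links the cycle to the respiratory chain, were all lower. Sdha, its flavoprotein, fell by 0.18, Sdhb by 0.13, Sdhc by 0.12 and Sdhd by 0.31 on the log2 scale (edgeR adjusted p = 0.000483, 0.00858, 0.0177 and 0.000113). With these 5 genes added, 13 of 17 TCA cycle genes were lower (76.5%, beside 25.0% of all genes tested and 36.5% of high-count genes) and 0 higher, with a median log2 fold change of -0.18. Under total-count scaling 10 of the 17 were lower, beside 19.4% of all genes, and Dlst was higher, with Sucla2, Sdhb and Sdhc no longer called and the median at -0.10.

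Fatty acid oxidation enzymes and their electron carriers were mixed in direction. Of the 17, 3 were higher and 7 lower under TMM scaling, with a median log2 fold change of -0.055. The lower share was 41.2%, beside 25.0% of all genes tested and 36.5% of high-count genes, and 25.5% of all genes were higher. The 10 called make 58.8%, a share near the 50.5% of all genes tested and the 61.0% of high-count genes. Of the same 17, 5 were higher and 3 lower under total-count scaling, with a median of 0.024. Under that scaling 5146 of all 16520 genes tested were called higher and 3205 (19.4%) lower. The genes called the same way under both were Cpt1a, Acadl and Acadm, higher, and Acadvl, Decr1 and Etfb, lower.

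The carnitine shuttle carries long acyl groups across the inner membrane. Cpt1a (ENSMUSG00000024900; GRCm39 chr19:3372334-3435733), the outer membrane carnitine palmitoyltransferase and the rate-controlling step, had 4851, 4584 and 4747 counts in Ctrl and 5933, 5512 and 5783 in l-FA. All l-FA libraries were above all Ctrl libraries. The CPM rose from 246 ± 7.26 to 282 ± 7.37 (SD, n = 3). The log2 fold change was 0.20 with an SE of 0.032 (edgeR adjusted p = 0.00237). Cpt2, which returns the acyl group to CoA inside, had 51.0 ± 3.14 and 52.3 ± 3.43 CPM (SD, n = 3, edgeR adjusted p = 0.691), and its libraries overlapped. Slc25a20, the carnitine-acylcarnitine carrier between them, went from 81.5 ± 1.23 to 76.0 ± 0.246 CPM (SD, n = 3, log2 fold change -0.10, edgeR adjusted p = 0.0319). This call was lost in 9 of the 14 alternatives, and under total-count scaling the change was -0.024.

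The acyl-CoA dehydrogenases take fatty acids of successive chain lengths. Acadvl, for very long chains, fell from 146 ± 6.69 to 128 ± 2.46 CPM (SD, n = 3, log2 fold change -0.19, edgeR adjusted p = 0.00764). Its locus overlaps Dvl2, with 256 shared transcript bases, and Dvl2 had a log2 fold change of 0.062. Acadl, for long chains, rose from 195 ± 4.91 to 213 ± 3.61 CPM (SD, n = 3, log2 fold change 0.13, edgeR adjusted p = 0.00945). Acadm, for medium chains, rose from 124 ± 4.03 to 133 ± 1.14 CPM (SD, n = 3, log2 fold change 0.10, edgeR adjusted p = 0.0411), a call that 8 of the 14 alternatives did not give. Acads, for short chains, had 40.3 ± 1.69 and 39.1 ± 0.550 CPM (SD, n = 3, edgeR adjusted p = 0.501). Changes of opposite sign therefore stood within the same enzyme family.

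**Figure D3:**
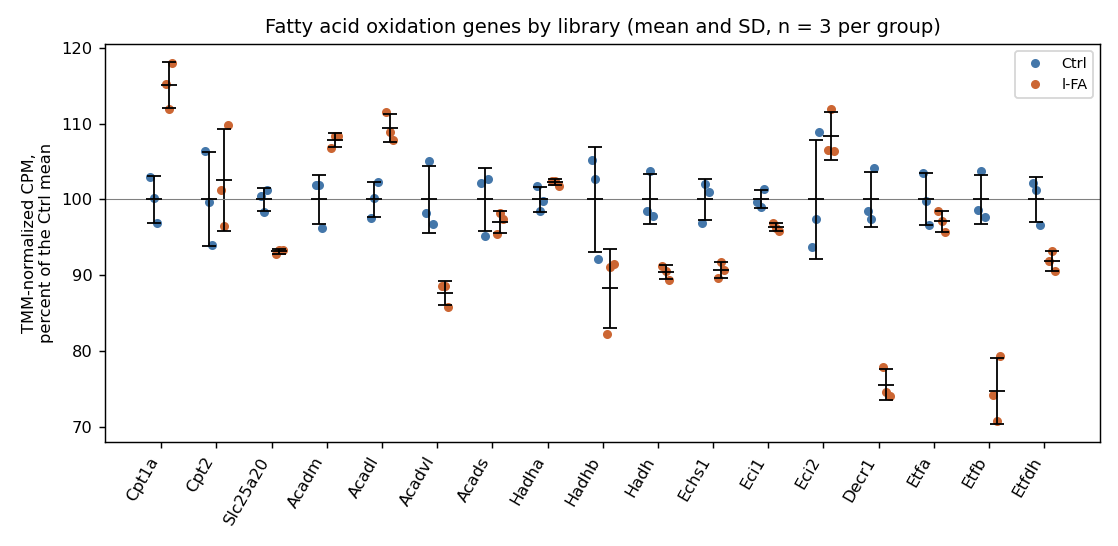
TMM-normalized CPM of the 17 fatty acid oxidation and electron transfer genes in each library as a percent of the Ctrl mean of that gene (vertical axis), with points for libraries and bars for mean and SD of 3 libraries. Decr1 and Etfb lie near 75% of Ctrl in l-FA, Cpt1a lies at 112% to 118%, and most other genes are within 15% of the Ctrl mean, a range in which total-count scaling turns Acads, Eci1 and Etfa from lower to higher.

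Of the later steps, Hadh, a 3-hydroxyacyl-CoA dehydrogenase, went from 167 ± 5.56 to 151 ± 1.79 CPM (SD, n = 3, log2 fold change -0.15, edgeR adjusted p = 0.00948). Echs1, enoyl-CoA hydratase, went from 193 ± 5.25 to 175 ± 1.87 CPM (SD, n = 3, log2 fold change -0.14, edgeR adjusted p = 0.00665). Both calls were lost under total-count scaling. The auxiliary enzymes act on double bonds of unsaturated chains. Decr1, 2,4-dienoyl-CoA reductase, fell furthest among the named enzymes that act on the acyl chain, from 61.3 ± 2.22 to 46.2 ± 1.25 CPM (SD, n = 3, log2 fold change -0.41, SE 0.045, edgeR adjusted p = 0.000514). Eci1 and Eci2, both enoyl-CoA isomerases, did not pass, with log2 fold changes of -0.055 (edgeR adjusted p = 0.195) and 0.12 (edgeR adjusted p = 0.171). Eci2 passed without Ctrl library 3 (0.18, edgeR adjusted p = 0.0280) and under total-count scaling (0.19, edgeR adjusted p = 0.0437).

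Hadha and Hadhb encode the alpha and beta subunits of the mitochondrial trifunctional protein, and in GRCm38.p6 their RefSeq starts face away from each other with 272 bases between them. Hadha had 2894, 2722 and 2957 counts in Ctrl and 3201, 3054 and 3012 in l-FA, with a log2 fold change of 0.033 (edgeR adjusted p = 0.332). Under total-count scaling Hadha passed as higher (0.112, edgeR adjusted p = 0.0124). Hadhb had 589, 559 and 536 counts in Ctrl and 504, 534 and 534 in l-FA, with a log2 fold change of -0.18 with an SE of 0.076 (edgeR adjusted p = 0.0929). Without Ctrl library 3 it passed as lower (-0.24, edgeR adjusted p = 0.0377). The sequence of Hadhb has near-identical copies, and how reads that match several of them were assigned is not given in the sources used here, so reads of the gene and of its copies cannot be told apart. Its processed pseudogene Hadhb-ps (GRCm39 chr2:108779151-108780578), 99.8% identical over 1428 bases, had 2706, 2587 and 2749 counts in Ctrl and 2428, 2312 and 2425 in l-FA. A further copy, Gm9108, is 97.6% identical over 1426 bases, and Hadhb held 15.1% to 17.2% of the counts of the 3 rows. With the rows summed, 3574, 3427 and 3550 counts in Ctrl stood against 3176, 3099 and 3245 in l-FA, and the sum was lower, with a log2 fold change of -0.22 with an SE of 0.036 (edgeR adjusted p = 0.00276). The log2 ratio of Hadha over the summed Hadhb rows was -0.30 ± 0.035 in Ctrl and -0.039 ± 0.061 in l-FA (n = 3, SD, two-sided exact permutation p = 0.1, the smallest that 3 against 3 allow). The groups of this ratio did not overlap, with Hadha nearer to Hadhb in l-FA.

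**Figure D4:**
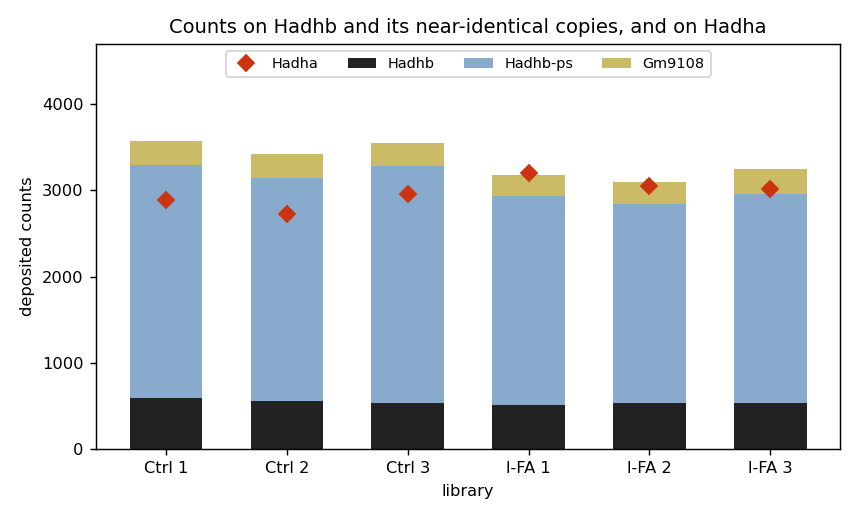
Deposited counts (vertical axis) on Hadhb and on its processed pseudogenes Hadhb-ps and Gm9108 stacked for each library, with diamonds for Hadha. Most of the stacked counts lie on Hadhb-ps, and the stacked total falls from 3427 to 3574 in Ctrl to 3099 to 3245 in l-FA while Hadha does not fall.

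Electron transfer flavoprotein collects electrons from all acyl-CoA dehydrogenases. Its alpha subunit gene Etfa had 218 ± 7.27 and 212 ± 2.72 CPM (SD, n = 3, log2 fold change -0.043, edgeR adjusted p = 0.294) and its libraries overlapped. Its beta subunit gene Etfb had 4415, 4508 and 4547 counts in Ctrl and 3623, 3312 and 3691 in l-FA, all lower. Etfb (ENSMUSG00000004610; GRCm39 chr7:43093507-43107224) had a log2 fold change of -0.42 with an SE of 0.047 (edgeR adjusted p = 0.000540). Etfbl, a gene listed over the same locus, overlaps it. Etfdh, the oxidoreductase that passes these electrons to ubiquinone, went from 107 ± 3.24 to 98.0 ± 1.39 CPM (SD, n = 3, log2 fold change -0.13, edgeR adjusted p = 0.0215), and lost its call in 6 of the 14 alternatives.

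Subunits or isozymes were also set against each other within each library, as log2 ratios of CPM (prior count 2) for 8 pairs, which scaling between libraries leaves nearly as they are. For 6 of the 8 pairs the groups did not overlap, where 60.3% of all single genes were without overlap and no share was computed for pairs of other genes, each with a two-sided exact permutation p = 0.1, the smallest that 3 libraries against 3 allow, and an adjusted p of 0.133 over the 8. The ratio of Idh2 to Idh3a differed most, at 0.578 ± 0.0297 in Ctrl and 1.055 ± 0.0130 in l-FA (n = 3, SD). Etfa over Etfb went from -0.096 ± 0.0624 to 0.284 ± 0.0941, and Hadha over Hadhb, with pseudogene rows left out, from 2.344 ± 0.1 to 2.555 ± 0.0933 (SD, n = 3). Neither ratio passed the adjusted threshold, which no pair could pass with 3 libraries a group. Sucla2 over Suclg2 was higher by 0.18, Eci1 over Eci2 lower by 0.17 and Acadvl over Acadm lower by 0.29 in l-FA, as differences of mean log2 ratios. The ratio of Mdh1 to Mdh2 overlapped between groups (difference -0.18, exact permutation p = 0.3, adjusted 0.343), as did that of Ppargc1b to Ppargc1a (difference 0.046, exact permutation p = 1.0, adjusted 1.0).

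The regulators were the least abundant of the named genes. Ppard (ENSMUSG00000002250; GRCm39 chr17:28451674-28520448) encodes PPAR delta, the nuclear receptor that turns on fatty acid oxidation genes in response to lipids. It had 63, 55 and 77 counts in Ctrl and 27, 20 and 22 in l-FA. The highest l-FA library lay below the lowest Ctrl library, with 3.37 ± 0.464 CPM in Ctrl and 1.13 ± 0.146 in l-FA (n = 3, SD). The log2 fold change was -1.57 with an SE of 0.18 (edgeR adjusted p = 0.000539) and stayed between -1.66 and -1.47 in all alternatives. Ppargc1a, which encodes the coactivator PGC-1 alpha, had 35, 50 and 41 counts in Ctrl and 42, 48 and 30 in l-FA (log2 fold change -0.15, SE 0.23, edgeR adjusted p = 0.623). Ppargc1b, which encodes the related PGC-1 beta, had 267, 229 and 225 counts in Ctrl and 219, 257 and 230 in l-FA (log2 fold change -0.11, SE 0.12, edgeR adjusted p = 0.472). No difference was detected for either coactivator gene, and their libraries overlapped.

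Target genes of the PPAR receptors did not move one way. Of 19 listed, 15 were in the table and 12 were tested, and 4 were higher and 4 lower in l-FA (33.3% each way, beside 25.5% of all genes tested as higher and 25.0% as lower genes), with a median log2 fold change of -0.042. Pdk4, the kinase that shuts off pyruvate dehydrogenase and a classical PPAR delta target, had 33, 34 and 31 counts in Ctrl and 3, 0 and 1 in l-FA. With l-FA set to a floor of 3 counts per library, it was 10.9-fold lower. The fitted log2 fold change, an estimate near that floor, was -4.57 (edgeR adjusted p = 0.00044). Chosen for naming after their values were seen, the lipid droplet coat gene Plin2 had a log2 fold change of -0.65 (edgeR adjusted p = 8.21e-05) and Angptl4, a secreted inhibitor of lipoprotein lipase, of -0.61 (edgeR adjusted p = 0.000358). Acot1, an acyl-CoA thioesterase, also fell, by 0.26 (edgeR adjusted p = 0.0260), a call lost under total-count scaling. The higher ones, likewise named after their values were seen, were Vnn1 (0.92), Ehhadh (0.55), Acot2 (0.44) and Ucp2 (0.20) as log2 fold changes. Ehhadh, a bifunctional enzyme of peroxisomal oxidation, had 140, 152 and 145 counts in Ctrl and 236, 241 and 199 in l-FA (edgeR adjusted p = 0.00456).

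Of 19 other regulators of these pathways, 17 were tested, with 3 higher and 9 lower, beside 25.5% of all genes tested as higher and 25.0% as lower genes. Esrra (ENSMUSG00000024955), which encodes the estrogen-related receptor alpha that works with PGC-1 on TCA cycle and oxidation genes, had 503, 435 and 514 counts in Ctrl and 258, 276 and 169 in l-FA. All l-FA libraries were lower, with a log2 fold change of -1.13 with an SE of 0.17 (edgeR adjusted p = 0.00202), and its locus overlaps Trmt112. Pparg and Prkaa2 were also past 2-fold and lower, named here after their values were seen, with at most 28 and 59 counts in a library. Pparg had a log2 fold change of -1.23 (edgeR adjusted p = 0.0184) and Prkaa2, a catalytic subunit of AMP-activated kinase, of -2.21 (edgeR adjusted p = 0.00207).

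**Figure D5:**
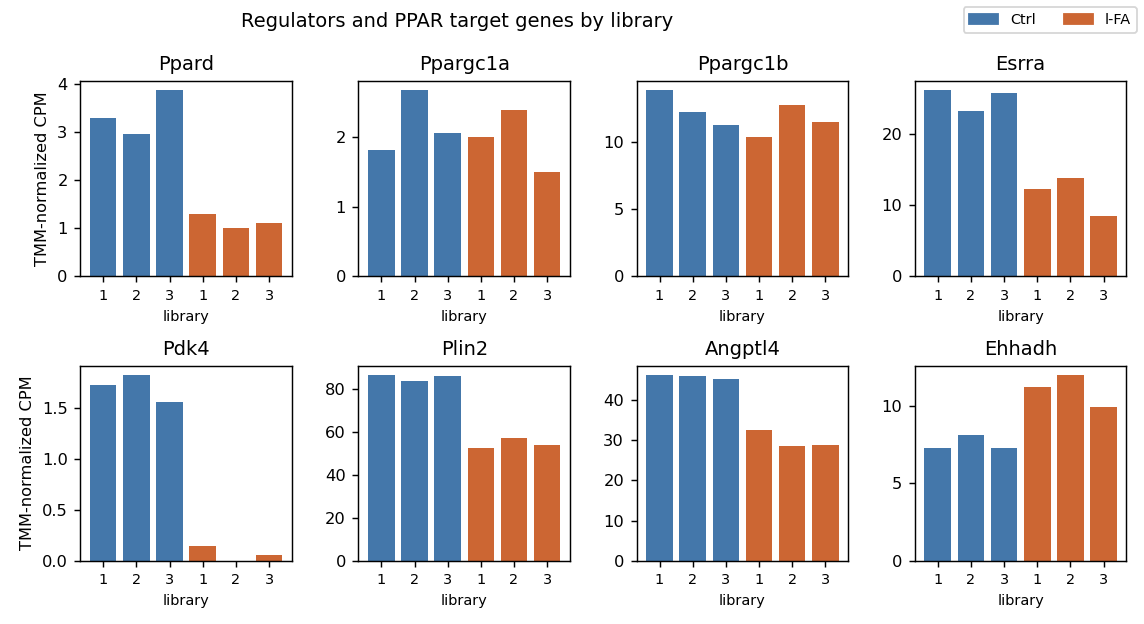
TMM-normalized CPM (vertical axis, a scale for each gene) in Ctrl libraries 1 to 3 and l-FA libraries 1 to 3 for Ppard, Ppargc1a, Ppargc1b, Esrra and 4 PPAR target genes. Ppard, Esrra, Pdk4, Plin2 and Angptl4 are lower in every l-FA library, Ehhadh is higher in every l-FA library, and the bars of Ppargc1a and Ppargc1b overlap.

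Levels were compared between genes per kilobase. The lengths behind the deposited FPKM (fragments scaled by gene length and library total) were 1.06 to 7.15 times (median 2.67) the longest annotated coding mRNA of the same gene, so the order between genes was read from TMM-normalized CPM per kilobase of that mRNA. On this scale Mdh2 stood highest, at 432 ± 4.74 in Ctrl and 321 ± 7.41 in l-FA (n = 3, SD). Idh2 followed at 266 ± 3.25 and 261 ± 4.65, and Etfb at 261 ± 8.12 and 195 ± 11.1 (SD, n = 3). Cs stood at 114 ± 2.06 and 80.7 ± 2.55 and Cpt1a at 56.9 ± 1.68 and 65.4 ± 1.71 (SD, n = 3). Hadhb was the lowest enzyme gene at 14.3 ± 0.982 in Ctrl, a value that leaves out the counts on its copies. Ppargc1b (3.42 ± 0.362), Ppard (1.03 ± 0.142) and Ppargc1a (0.338 ± 0.0684) closed the order in Ctrl (SD, n = 3). In l-FA Ppard, at 0.344 ± 0.0446, came to the level of Ppargc1a, at 0.304 ± 0.0691. The ranges of 24 genes over the 6 libraries overlapped that of the next gene in the order, so most neighbours could not be ranked.

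Summed deposited FPKM of the 12 TCA cycle genes went from 547 ± 3.39 in Ctrl to 485 ± 0.772 in l-FA (n = 3, SD). It fell by 11.4%, without overlap. In mean FPKM the largest falls were in Mdh2 (118 to 92.9), Cs (54.5 to 40.9) and Idh3a (44.4 to 33.1). The mean FPKM of Idh2, Idh3b, Idh3g and Dlst rose, so the fall of the sum was not shared by all 12 genes. With TMM-normalized CPM per kilobase in place of FPKM the sum fell by 16.0%. The same FPKM sum over the 17 fatty acid oxidation genes was 506 ± 2.39 in Ctrl and 508 ± 5.20 in l-FA (n = 3, SD) and overlapped, while on the TMM scale it went from 521 ± 5.17 to 495 ± 3.79 and was lower in every l-FA library. Within these genes the sums of the carnitine shuttle and of the acyl-CoA dehydrogenases were higher in l-FA on both scales, by 12.3% and 9.81% in FPKM and by 6.33% and 4.0% with TMM. With lengths of the longest mRNA their libraries overlapped. The sum of the electron transfer genes fell by 8.65% in FPKM and fell by 13.5% with TMM. Most of this fall lay in Etfb, with a mean FPKM of 90.4 in Ctrl and 71.2 in l-FA. Etfdh had 10.9 and 10.5, and Etfa was higher, with 96.6 and 99.0. The fall of the TCA cycle sum therefore held under each scale and length tried. The fatty acid oxidation sum overlapped between groups in FPKM and was lower in every l-FA library with TMM scaling under either length.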

How the data were processed

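The RNA of sorted HSCs (3 libraries each of Ctrl and l-FA) was copied to cDNA, amplified and sequenced. The authors deposited counts per gene without normalization, and FPKM that the authors made from the same counts by gene length and library total. The submitters' processing notes name HISAT2, SAMtools 1.3.1, StringTie, edgeR and GRCm39, without roles, and whether counting used strand is not given in the sources used here. Tests ran on these counts in edgeR 4.0.16 under R 4.3.3 (TMM, filterByExpr, glmQLFit, glmQLFTest), with Benjamini-Hochberg adjustment over 16520 of 27198 genes, and CPM are TMM-normalized. The same code was tested on simulated data. Groups came from the sample labels. The named genes and gene lists were chosen with earlier results of these data known. Every member is named with values, and of other lists genes past 2-fold with a mean of 100 counts, the Sdh subunits, Dld and Pdk4. The lists leave out 2 genes that are not reported here. Marker genes are given as sums, and Lyz2, Kit, Cd34 and Flt3 are named outside the rule. Genes named outside this rule are said to be so. Near-identical copies were found by aligning mRNAs (at least 95% over 200 bases, GENCODE M21). Of the named genes 12 overlap another listed gene. Alternatives were DESeq2 1.42.0, RLE, upper-quartile and total-count scaling, no or a stricter filter, a replicate block, each library left out, and other lengths. Promoters are RefSeq windows of GRCm38.p6, and coordinates marked GRCm39 are those of the deposited table. Counts lack molecular identifiers, so the floor used for Pdk4 covers neither amplification nor all counting error, and it was scaled by total counts.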

Additional observations from a re-analysis of the deposited data

How the results depend on the processing

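The number of named genes called stayed within 1.5 times of 20 in every alternative, from 16 to 21. The number of genes past 2-fold among all genes moved with the filter on low counts, from 1946 to 3335 without a filter and to 930 with at least 10 counts in every library, settings that test more or fewer genes. The named genes had a median log2 change that ranged from -0.158 to -0.104 with 1 library left out, lowest in size without l-FA library 3, and was -0.062 under total-count scaling. That scaling turned 5 uncalled genes from lower to higher, namely Acads (0.035), Eci1 (0.024), Etfa (0.036), Idh2 (0.053) and Idh3g (0.044). Leaving out 1 library at a time turned the sign of uncalled Ppargc1a (range -0.304 to 0.019, above 0 without Ctrl library 2 or l-FA library 3), Cpt2 (-0.012 to 0.09) and Idh3b (-0.012 to 0.052), the last pair below 0 without Ctrl library 3 or l-FA library 3. For the log2 ratio of Ppargc1b to Ppargc1a, the l-FA minus Ctrl difference ranged from -0.124 to 0.241. That difference was -0.114 without Ctrl library 2 and -0.124 without l-FA library 3. The summed fatty acid oxidation level, 0.004 as log2 of l-FA over Ctrl in FPKM, was -0.075 with TMM-normalized CPM per kilobase and -0.109 with the longest-transcript length, and the TCA cycle sum went from -0.174 to -0.252 and -0.246. The cause of the other moves was not tested.

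The replicate numbers are shared between groups without a stated pairing, and same-numbered libraries did not deviate together (correlations 0.0187, -0.0132 and -0.05). With the replicate block 17 of the named genes were called, 2 higher and 15 lower, as were 7 of the 12 TCA cycle genes, 25 of the related genes, 7 PPAR targets and 7405 of all genes, 1852 of them past 2-fold. Slc25a20, Acadm and Sucla2 lost their call, and the median of the named genes was -0.141. Depth limits Ppard, Ppargc1a, Pdk4, Pparg, Prkaa2 and Vnn1, each with under 100 counts in every library.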

Other observations

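Peroxisomal enzymes, grouped after their values were seen, were mixed in direction. Of 6 in the related list, 3 were higher and 2 lower, beside 25.5% and 25.0% of all genes tested. Acox3, Ehhadh and Crot rose by 0.79, 0.55 and 0.21 on the log2 scale. Hsd17b4 and Decr2 fell by 0.21 and 0.49, the call of Decr2 being lost under total-count scaling, and Acaa1a did not pass (-0.073, edgeR adjusted p = 0.244). Mlycd, which encodes the malonyl-CoA decarboxylase that removes the inhibitor of Cpt1a, had 507, 429 and 457 counts in Ctrl and 214, 172 and 165 in l-FA, a log2 fold change of -1.42 (standard error 0.11, edgeR adjusted p = 0.000122). In the related list Mlycd and Pdk4 were past 2-fold.

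Entry of pyruvate into the cycle, also grouped after values were seen, had 2 of 11 genes higher and 5 lower, beside 25.5% and 25.0% of all genes tested. Pdk1 and Pdk2, kinases of pyruvate dehydrogenase, rose by 0.39 and 0.72 on the log2 scale (edgeR adjusted p = 0.000393 and 4.01e-05). Pdk4 was 10.9-fold lower with l-FA set to the floor of 3 counts. Pdk3 did not pass (0.013, edgeR adjusted p = 0.731) except as higher under total-count scaling. Dlat, the E2 subunit, fell by 0.40 and Pdhb by 0.21, and Pdha1 did not pass (-0.048, edgeR adjusted p = 0.187). Glud1, which feeds glutamate into the cycle, fell by 0.68 (edgeR adjusted p = 1.14e-05) and the cytosolic Idh1 by 0.84 (edgeR adjusted p = 1.45e-05). Sirt3, the mitochondrial deacetylase, rose by 0.40 (edgeR adjusted p = 0.000194) and the kinase gene Stk11 fell by 0.66 (edgeR adjusted p = 0.00153). These single genes were chosen after their values were seen, and no explanation for them was tested.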
